A study of Rattus norvegicus with 18 samples.

Results

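The rat transcriptome array used here measures transcript clusters, which are groups of probes laid on one stretch of genome where transcription was recorded or predicted when the array was designed. Of the 68842 features that were not controls, 44891 (65.2%) carried no gene symbol in the platform annotation, and these are the features described here. The remaining features carried 1 symbol (23446) or several (505). The rule that chose them reads only the annotation, although it was set with earlier results of these data known. The samples were nucleus accumbens from 18 male Sprague-Dawley rats, with 1 array per rat. There were 6 control, 6 shock-resistant and 6 shock-sensitive rats, from an experiment on methamphetamine self-administration with footshock as the adverse consequence. The labels name no genotype, and the sources used here do not give the rats' ages, the hours of drug access or what the controls received. The p-values below measure the spread between these rats. In work of this kind, shock-resistant rats keep taking the drug when shock is delivered and shock-sensitive rats cut their intake. The submitters chose the 6 rats of each group on RNA quality.

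A feature without a symbol can come from several kinds of transcript. Mammalian genomes are transcribed well beyond their annotated genes, giving long noncoding RNAs, antisense RNAs, unannotated exons and tails of known genes, RNA of introns, small RNAs and copies of repeated sequence. Long introns of neuronal genes and extended 3′ tails are known sources of such signal in brain. An array tells none of these apart, since a probe reports any labelled RNA that binds it, and a probe in repeated sequence binds RNA from every copy. Reads or sequences of these clusters were not analysed here, and no role is given below to a feature without a symbol.

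The dissection carried the RNA of its main cell type. All 17 measured markers of medium spiny neurons, the projection neurons of the striatum, lay above the negative control median. The mean of these markers over a group's arrays was 12.43 ± 0.66 (SD, n = 6) in control, 12.78 ± 0.29 in shock-resistant and 12.16 ± 0.65 in shock-sensitive rats on the log2 scale. It was lowest on control replicate 1 (11.16) and shock-sensitive replicate 4 (11.04), and 11.98 or more on the others. Of other regions' markers, 5 of 9 for cortical excitatory neurons, 3 of 8 for septal or hypothalamic neurons and 1 of 10 for choroid plexus lay above that median. In such tissue, fewer cells of a type and less RNA per cell cannot be told apart. Any pair of arrays correlated at 0.993 to 0.997 over the features without a symbol. Each group mean rests on 6 arrays, and their number limits its precision.

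Most features without a symbol were dim, and a few were among the brightest on the array. Their median level was 5.12 on the log2 scale (quartiles 4.29 and 6.93), against 6.52 (quartiles 4.71 and 8.91) for features with 1 symbol. The 1153 negative control features, which target no rat transcript, had a median of 6.37 and a 95th percentile of 9.98. Below the negative control median lay 31222 features without a symbol (69.6%), against 48.4% of those with 1 symbol. Another 9004 lay between that median and the 95th percentile, and 2590 between the percentile and a level of 16. Above 16 lay 2075 features without a symbol (4.62%) and 87 with 1 symbol (0.371%). Above 19 the counts were 964 and 8. Between 14 and 16 the shares were closer, at 0.806% and 1.05%.

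**Figure D1:**
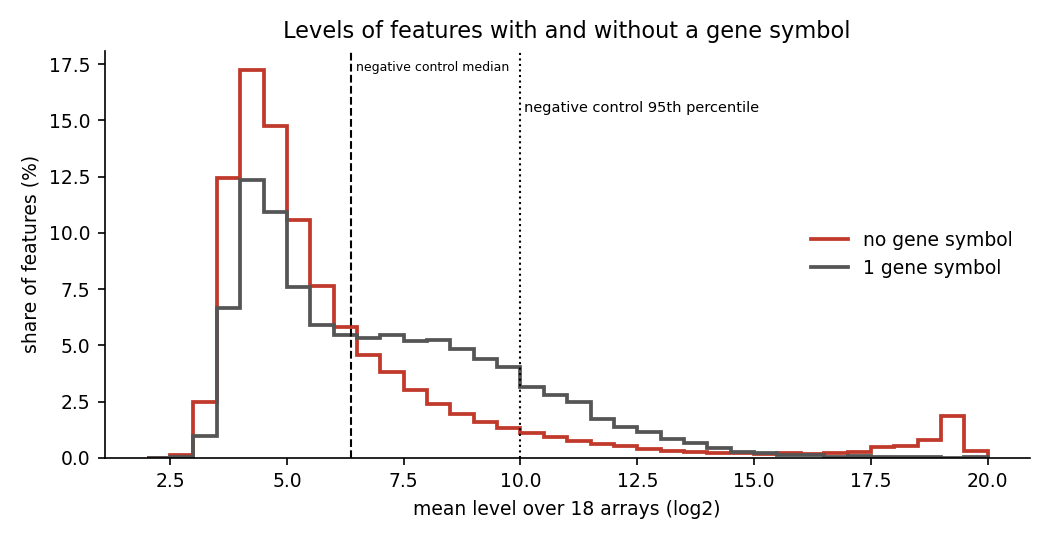
Share of features in bins of mean log2 level over 18 arrays, for the 44891 features without a gene symbol and the 23446 with 1 symbol, with the negative control median (dashed) and 95th percentile (dotted). Features without a symbol peak below the negative control median and have a separate group above 16.

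The bright group sat close to the top of the scale. The highest value on an array was 19.55 on control replicate 1 and between 19.82 and 19.93 on the other 17 arrays. On control replicate 1, 189 features without a symbol lay within 0.02 of that array's maximum, against 5 (shock-sensitive replicate 4) to 66 (shock-resistant replicate 6) on the others. Features with a symbol at or near this level included a ribosomal RNA feature that names Rn18s, Rn45s, Rn28s and Rn5-8s (19.88), one of Rn5-8s alone (19.68), Rn7sl1 of the signal recognition particle (19.57), the neuronal noncoding RNA Bc1 (19.66 and 18.85), an unplaced feature of the chaperone Hspa8 (19.71) and the mitochondrial COX1 (19.89), COX2 and COX3. Differences between groups cannot be read from features at such a ceiling. The 8 features without a symbol of highest mean, which include TC0M00000004.rn.1 on the mitochondrial genome, TC0600000366.rn.1, TC1400000563.rn.1, TC0200001064.rn.1 and TC0100007137.rn.1, all had a mean of 19.88. In each of the 8, control replicate 1 read 19.55 and the mean of either methamphetamine group differed from control by at most 0.04.

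Some features without a symbol were not separate measurements. Exactly equal values on all 18 arrays were shared with another feature by 1135 of them (2.53%), in 382 sets. Of these sets, 15 held 10 or more features, all without a symbol, and accounted for 354 features with mean levels from 17.74 to 19.62. The largest held 49 features on 15 chromosomes, 48 features on 15 and 44 features on 16. Shared values were found in 552 of the 2075 features above 16 (26.6%) and in 583 of the rest (1.36%). At any level, 307 features with 1 symbol shared all values (1.31%), near the share of that rest. Sets that mixed features with and without a symbol included olfactory receptor genes such as Or8b56 and Or8c9 at levels of 4 to 5, and the histone gene Hist1h4b at 10.12 with 4 features without a symbol. Counted once each, the 44891 features gave 44138 distinct rows of values.

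By the chromosome in the row name, 44747 features without a symbol were placed and 144 were not. Their share of a chromosome's features ran from 57.0% on chromosome 10 to 71.2% on chromosome 6 among the autosomes, and was 63.2% on X. No feature on Y lacked a symbol (0 of 10). Median levels were 4.92 to 5.24 on the autosomes and 5.52 on X, where 11.1% of these features lay above 16, against 1.67% (chromosome 12) to 5.85% (chromosome 2) on the autosomes. On the mitochondrial genome 37 of 40 features lacked a symbol, with a median of 15.87 and a range from 4.48 to 19.88. Of these 37, 18 lay above 16, 8 above 19 and 3 below the negative control median. The mitochondrial genome is transcribed from both strands into long precursors that are cut into messenger, ribosomal and transfer RNAs.

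The serial number in a row name mostly followed genome position. Among features with 1 symbol that matched RefSeq genes of assembly GRCr8 by gene number, 98.7% of 21791 lay on the chromosome of their row name. Of 21482 neighbouring pairs, 92.1% had rising gene starts, and 95.2% of 13748 pairs with a known strand shared it. Among the autosomes the share of rising starts was lowest on chromosomes 19 (76.3%), 20 (82.5%) and 17 (84.6%). Of 22897 features without a symbol whose named flanks were both in RefSeq, 79.3% had those flanks near each other and in order on 1 strand. Places between genes given below are places in serial order. RefSeq was used for names and order alone, since the sources used here do not give the build of the array's design. Of the 44747 features without a symbol that have a named neighbour in serial order, 49.2% stood directly beside a feature with 1 symbol. Since neighbours in this order mostly share a strand, a gene on the other strand can lie closer without standing beside the feature. Such a feature may be an unannotated part of its neighbour, a separate RNA or antisense to a gene on the other strand. These values cannot tell which.

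Features without a symbol varied with their neighbours more than with features farther off. Correlations were taken over the 18 arrays after each group's mean was removed, for pairs with both levels between the negative control median and 16. The median correlation with a feature of 1 symbol was 0.18 for 4771 adjacent pairs, 0.07 at 2 places, 0.00 at 5 and -0.05 at 100. A correlation of 0.8 or more was found in 5.16% of adjacent pairs and in 0.13% of pairs 100 places apart. Among features with 1 symbol, adjacent pairs had the same median of 0.18, and pairs 100 places apart had 0.09. All pairs come from the same 18 arrays, so these are descriptions.

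**Figure D2:**
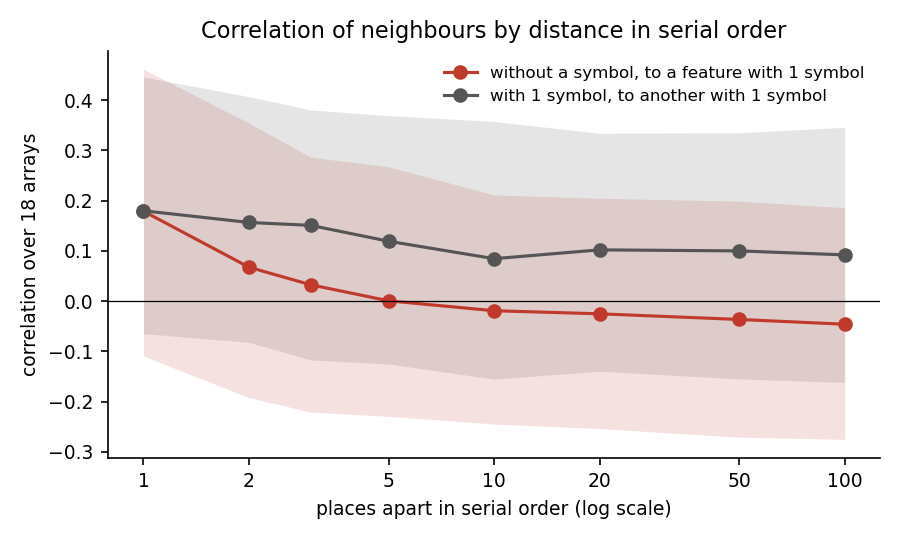
Median correlation over 18 arrays (points) and quartiles (bands) between a feature and a feature with 1 symbol, by places apart in serial order on a log scale. For features without a symbol the median falls from 0.18 beside the neighbour to 0.00 at 5 places, and for features with 1 symbol from 0.18 to 0.12.

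Features beside markers of medium spiny neurons often followed their gene. Of 22 features without a symbol directly beside one of these genes, 14 lay above the negative control median, their median correlation with the gene was 0.78, and 6 reached 0.8. Those that did not follow were TC0200002950.rn.1 beside Isl1 (-0.31), TC1700000199.rn.1 beside Drd1 (-0.14), TC1100001708.rn.1 beside Adcy5 (0.04) and TC0800000593.rn.1 beside Scn4b (0.12). For astrocyte, oligodendrocyte, cortical neuron and vessel markers, 3 or 4 adjacent features were above the median, with median correlations from -0.22 to 0.08 and none at 0.8. Choroid plexus markers had 3 such features (median 0.26), septal or hypothalamic markers 2 (0.28, 1 of them at 0.8 or more), microglial markers 1 (0.44) and oligodendrocyte precursor markers 1 (0.91). Over a group's arrays, the marker mean had an SD of 0.29 to 0.66 for medium spiny neurons. It was 0.11 to 0.12 for astrocytes, 0.18 to 0.19 for vessels, 0.17 to 0.30 for oligodendrocytes and 0.15 to 0.53 for cortical neurons. For choroid plexus it was 0.18 to 1.28. Markers that vary less leave less to follow, and the part of this in the contrast between cell types was not tested. The features described next were chosen after their correlations were seen. TC0100004494.rn.1, at 10.60, stood beside Pde10a, the striatal phosphodiesterase, with r = 0.94 and Spearman's rho = 0.91. Leaving out the arrays farthest from the median of Pde10a, control replicate 1 and shock-sensitive replicate 4, r was 0.87. TC0400003431.rn.1, at 11.71, stood beside Foxp1, a transcription factor of these neurons, with r = 0.93 and rho = 0.82, and 0.83 without the same 2 arrays. TC1000004021.rn.1, at 10.72, stood beside Rgs9, which shortens dopamine receptor signalling, with r = 0.93 and rho = 0.87, and 0.86 without them. The feature beside Bcl11b, TC0600003136.rn.1, gave 0.86, rho = 0.84 and 0.70 without them. Leaving out the same arrays, r fell from 0.77 to 0.45 for TC0700000177.rn.1 beside Gng7 and from 0.71 to 0.40 for TC1500000102.rn.1 beside Rarb. TC1400001664.rn.1 followed Pdgfra, the receptor that marks oligodendrocyte precursors, with r = 0.91 and rho = 0.88, and 0.805 without the 2 arrays farthest from its median. TC0600001490.rn.1, a bright feature at 12.36 beside the imprinted gene Dlk1, gave r = 0.88 and rho = 0.69, and 0.80 without its 2.

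The comparisons below used limma over all 68842 features, with Benjamini-Hochberg adjustment over all of them. No feature, with or without a symbol, passed an adjusted p of 0.05 in shock-resistant rats against controls (percent called 0), shock-sensitive rats against controls (0), shock-resistant against shock-sensitive rats (0) or the F test of any difference among the 3 groups (0). By limma's unadjusted p at 0.05, 3719 features without a symbol were higher and 1552 lower in the first comparison, 2460 and 1320 in the second and 1259 and 733 in the third. In the F test 4033 of the 44891 features without a symbol lay below it, beside 5697 of all 68842 features. With array quality weights in limma, 8 features without a symbol passed the adjusted threshold in the first comparison and none in the others. The 3 comparisons sum to 11.7%, 8.42% and 4.44% of them, against 11.0%, 7.17% and 4.82% of all features. A nominal criterion, a difference of 1.3-fold or more together with an unadjusted p below 0.05, serves below to describe direction and makes no call on a single feature. The first and second comparisons share the controls, and the third shares each methamphetamine group with one of them. Groups did not overlap in 0.76%, 0.53% and 0.156% of features without a symbol, beside 0.736%, 0.479% and 0.176% of all features. Features named for a small p tend to separate the groups by that choice, so a lack of overlap in them is no added support.

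In shock-resistant rats against controls, 432 features without a symbol met the nominal criterion as higher and 250 as lower. These are 0.962% and 0.557% of them, beside 0.754% and 0.507% of all features. Below the negative control median lay 212 of the higher and 89 of the lower ones, and a fit of the features at or above that median gave 217 higher and 155 lower. The majority of higher features depended on scaling and on single arrays. With each array centred on its median 275 were higher and 416 lower, where the mean array median of the groups differed by 0.04. Without control replicate 3 the counts were 432 and 509, and without shock-resistant replicate 6 they were 413 and 467. The smallest adjusted p was 0.0591, for TC2000000818.rn.1 and for a dim feature described below. TC2000000818.rn.1, between Cdk19 and Zbtb24, read 13.68, 13.92 and 14.12 (lowest, median and highest) in control, 14.34, 14.55 and 14.88 in shock-resistant and 14.26, 14.58 and 14.65 in shock-sensitive rats. All 12 methamphetamine arrays lay above all 6 controls. The difference from control was 0.65 ± 0.09 (SE) in shock-resistant rats, or 1.57-fold, and 0.58 ± 0.09 in shock-sensitive rats, with an adjusted p of 0.205. Without shock-resistant replicate 4 its adjusted p against control was 0.0344, and without shock-sensitive replicate 2 it was 0.0333. The nearest features with a symbol, 5 and 6 places off, were Cdk19, which differed by -0.01 and -0.11 in the same comparisons, and Zbtb24, by -0.07 and -0.03.

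The largest difference in this comparison was that of TC0700002126.rn.1, between Map2k2, a kinase of the ERK pathway, and Thop1, a peptidase. It read 7.23, 8.68 and 9.84 in control, 9.71, 10.60 and 12.05 in shock-resistant and 9.96, 10.70 and 10.93 in shock-sensitive rats. The lowest shock-resistant array overlapped the highest control, and the shock-sensitive arrays lay above all controls. The difference in shock-resistant rats was 2.20 ± 0.40 (SE), 4.59-fold, with an adjusted p of 0.106, and in shock-sensitive rats 1.92 ± 0.40, 3.77-fold, with an adjusted p of 0.273. Map2k2 differed from control by -0.02 and 0.04 and Thop1 by -0.05 and -0.11. TC0300002928.rn.1, directly before Rab14, read 8.38 to 8.68 in control, 8.90 to 9.50 in shock-resistant and 8.84 to 9.33 in shock-sensitive rats, so that both groups lay above the controls. Its differences were 0.58 (adjusted p = 0.0841) and 0.50 (0.273). TC0600003340.rn.1, TC0500002855.rn.1 and TC0100004799.rn.1 were higher in every shock-resistant array than in any control, by 0.56, 0.41 and 0.48, with adjusted p from 0.0841 to 0.0947.

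Of the lower features, TC1500002330.rn.1 read 7.17, 7.50 and 7.95 in control, 6.50, 6.78 and 7.07 in shock-resistant and 7.23, 7.42 and 7.85 in shock-sensitive rats. All shock-resistant arrays lay below all others. The difference was -0.75 against control (adjusted p = 0.118) and -0.70 against shock-sensitive rats (0.911). The named feature after it, Slitrk1, which codes for a neuronal membrane protein of neurite growth, stood 5 places off, differed by -0.56 and -0.48 in the same comparisons and correlated with it at 0.63 (rho = 0.69), or 0.49 without the 2 arrays farthest from the median of Slitrk1. TC1700001987.rn.1 read 7.67 to 8.57 in control, 7.21 to 7.71 in shock-resistant and 7.23 to 7.72 in shock-sensitive rats, with differences of -0.62 (adjusted p = 0.176) and -0.63 (0.273). TC1500000821.rn.1, TC2000001617.rn.1, TC1700001602.rn.1 and TC0900002134.rn.1 were lower by 0.45 to 0.77 in shock-resistant rats, with adjusted p from 0.191 to 0.230, and each overlapped the controls.

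The dim feature with the same smallest adjusted p, TC0300000969.rn.1 between Med19 and Ypel4, was named after its values were seen. It read 5.03, 5.36 and 5.56 in control, 4.32, 4.49 and 4.88 in shock-resistant and 4.74, 5.09 and 5.39 in shock-sensitive rats. All shock-resistant arrays lay below all controls, with a difference of -0.82, but every value lay under the negative control median of 6.37. Its adjusted p was 0.0457 without control replicate 6, 0.0304 without shock-resistant replicate 4, 0.0333 without shock-sensitive replicate 2 and 0.0402 without shock-sensitive replicate 4.

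In shock-sensitive rats against controls, 262 features without a symbol met the nominal criterion as higher and 194 as lower, or 0.584% and 0.432%, beside 0.440% and 0.318% of all features. Below the negative control median lay 112 and 56 of them, and a fit of the features at or above it gave 144 higher and 134 lower. With each array centred on its median, 188 were higher and 274 lower. Lower features were also the more numerous without any 1 of control replicates 2 and 3 and shock-sensitive replicates 1 and 3, for example 281 higher and 354 lower without shock-sensitive replicate 1. Without shock-sensitive replicate 2 the count of both directions was 747 in place of 456. The smallest adjusted p was 0.205. TC0200000064.rn.1, 2 places before Arrdc3, an arrestin-like gene, was among those with the smallest p. It read 7.68, 7.86 and 8.16 in control, 8.18, 8.31 and 8.73 in shock-resistant and 8.23, 8.93 and 9.44 in shock-sensitive rats. Both methamphetamine groups lay above the controls, by 0.51 ± 0.18 (SE; adjusted p = 0.340) and 0.97 ± 0.18 (0.241), while Arrdc3 differed by -0.34 and -0.01. TC0500002438.rn.1 read 9.42, 9.50 and 9.78 in control against 9.86, 10.01 and 10.40 in shock-sensitive rats, a difference of 0.52 (adjusted p = 0.205). TC1500000397.rn.1, in a stretch that holds T cell receptor alpha variable genes such as Trav12-3, was higher by 0.45 (0.205), and by 0.52 without shock-sensitive replicate 2, where its adjusted p was 0.0231. A feature below the negative control median, TC0700000882.rn.1, named after its values were seen, also passed without that array (adjusted p = 0.0135). TC1500000453.rn.1 was higher by 0.45 (0.250).

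Of the features lower in shock-sensitive rats, TC0900000707.rn.1, in the stretch before the complex I gene Ndufb3, read 6.999, 7.11 and 7.49 in control, 6.81, 6.87 and 6.999 in shock-resistant and 6.58, 6.75 and 6.82 in shock-sensitive rats. All shock-sensitive arrays lay below all controls, by 0.46 on average, with an adjusted p of 0.205. TC1500001441.rn.1, beside Ero1a, an oxidase of protein folding, read 6.97 to 7.39 in control, 6.44 to 6.92 in shock-resistant and 6.18 to 6.83 in shock-sensitive rats. Its differences were -0.46 (adjusted p = 0.230) and -0.62 (0.205), with no overlap with the controls in either. TC0300002262.rn.1, between Ttpal and Pkig, differed by -0.50 (0.302) and TC0300003838.rn.1 by -0.72 (0.335). On the mitochondrial genome, 3 of the 37 features without a symbol met the nominal criterion as lower in shock-resistant and 5 in shock-sensitive rats, and none as higher, where 0.507% and 0.318% of all features were lower. Those 5 had mean levels from 14.89 to 17.10, and all features above 16 had median differences of -0.122 and -0.107 in these comparisons.

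In shock-resistant against shock-sensitive rats, 187 features without a symbol met the nominal criterion as higher and 113 as lower, or 0.417% and 0.252%. Over all features the shares were 0.450% and 0.365%. The smallest adjusted p was 0.871. Medium spiny neuron markers moved with these features. The 187 higher ones had a median correlation of 0.62 with the marker mean over 18 arrays, after removal of the group means, and the 113 lower ones of -0.505, against -0.03 over all features without a symbol. When the mean of these markers entered the fit, 179 features of both directions met the criterion in place of 300. Leaving out the arrays lowest in these markers, shock-sensitive replicate 4 and control replicate 1, gave 228. The count was over 1.5 times as large without shock-resistant replicate 4 (478) and without shock-sensitive replicates 1 (568) or 2 (491), and higher and lower features were 106 and 108 without shock-sensitive replicate 4 and 147 and 152 without shock-resistant replicate 6. Differences of single features from the fit with the markers are not given here, and no part of them is credited to the markers.

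TC0700001477.rn.1, directly after the T-type calcium channel gene Cacna1i, read 8.23, 8.42 and 8.68 in control, 8.56, 8.70 and 8.99 in shock-resistant and 7.90, 8.15 and 8.55 in shock-sensitive rats. Shock-resistant arrays lay above all shock-sensitive arrays, by 0.52 ± 0.11 (SE; adjusted p = 0.911). Cacna1i differed by 0.60 and correlated with the feature at 0.74 (rho = 0.70), or 0.78 without the 2 arrays farthest from its median. TC0200004083.rn.1, directly after Chrnb2, a nicotinic receptor subunit, read 6.79 to 7.20 in shock-resistant and 6.44 to 6.79 in shock-sensitive rats, where the nearest arrays of the groups were equal to 2 decimals, and differed by 0.43 (adjusted p = 0.871). Chrnb2 itself differed by -0.21. TC1800000665.rn.1, near the sialyltransferase gene St8sia3, differed by 0.70 (0.911) beside 0.38 for that gene. TC1700000233.rn.1 near the adaptor gene Shc3 differed by 0.42, beside 0.31 for Shc3. Both genes stood 2 places off. TC0600002935.rn.1, 2 places before the deiodinase gene Dio2, differed by 0.55 beside 0.36 for Dio2, and TC1900000618.rn.1, between Zfp1 and Gabarapl2, by 0.40 beside -0.03 and -0.07.

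Among features lower in shock-resistant than in shock-sensitive rats, TC1300001291.rn.1 stood directly before Dpp10, which codes for a subunit of A-type potassium channels. It read 10.71, 11.32 and 11.58 in control, 10.52, 10.72 and 11.25 in shock-resistant and 11.15, 11.40 and 11.72 in shock-sensitive rats. Shock-resistant arrays were the low ones, with an overlap, and differed by -0.56 ± 0.16 (SE; adjusted p = 1) from shock-sensitive and -0.44 from control. Dpp10 differed by -0.45 and -0.47, and correlated with the feature at 0.94 (rho = 0.91), or 0.95 without the 2 arrays farthest from its median. TC1900001425.rn.1, directly after Zfp612, read 8.92 to 9.33 in shock-resistant and 9.47 to 9.99 in shock-sensitive rats with no overlap, a difference of -0.56, beside -0.48 for Zfp612. TC1100000100.rn.1, TC0X00000350.rn.1 and TC1400001727.rn.1 differed by -0.53, -0.51 and -0.45, and their groups overlapped.

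**Figure D3:**
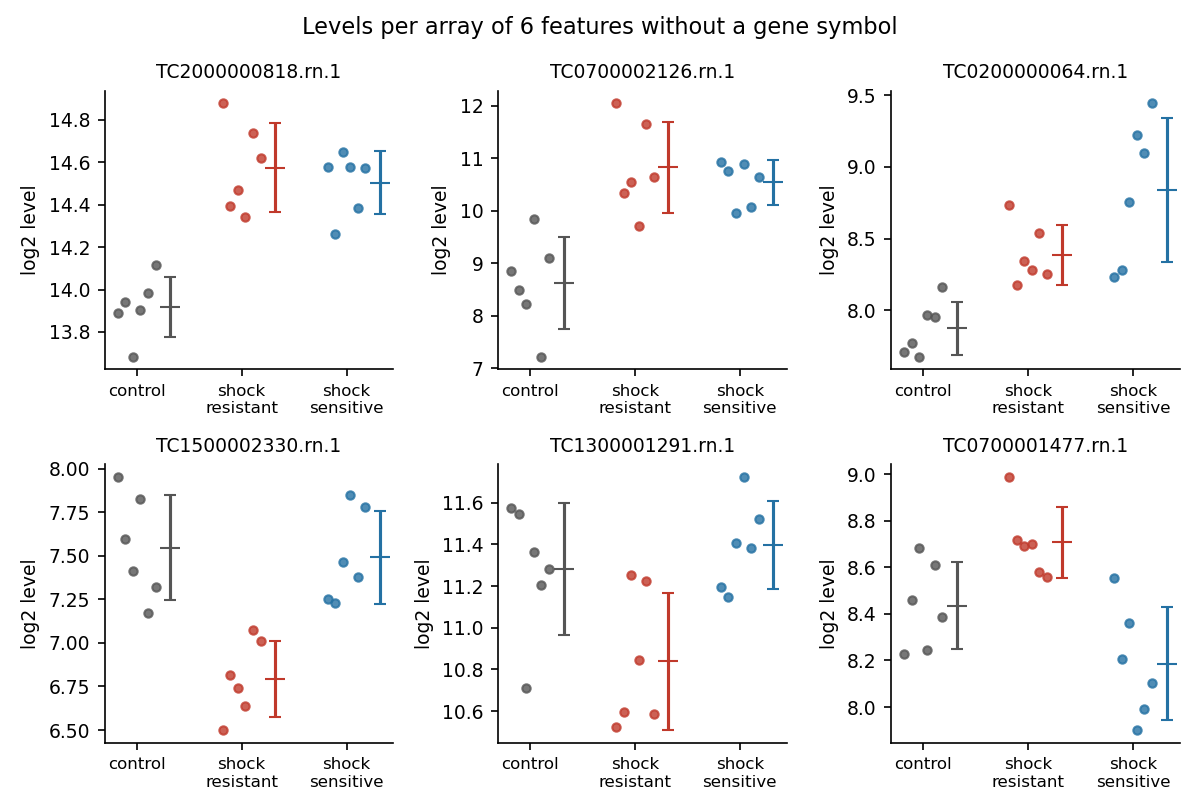
Log2 levels on each of the 18 arrays for 6 features without a symbol, with the group mean and SD (n = 6) as bars. Both methamphetamine groups sit above the controls in TC2000000818.rn.1 and TC0200000064.rn.1, and shock-resistant rats are lowest in TC1500002330.rn.1.

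Features meeting the nominal criterion stood together on 3 chromosomes. In windows of 25 consecutive features, at least 6 features without a symbol met the criterion on chromosomes 13, 16 and 17 in shock-resistant rats against controls and on chromosome 17 in shock-sensitive rats against controls. These windows were chosen after their values were seen, so the counts below are descriptions. The densest was on chromosome 17, where 10 and 11 of 25 features met it.

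The stretch on chromosome 17 lies between Sfmbt2, which codes for a polycomb-group protein, and Kin, a DNA-binding protein gene. In mouse an intron of Sfmbt2 holds a large cluster of repeated microRNA genes, and on this array the named features inside the stretch were Mir466d (3 features), Mir466c (1) and Itih5. The mature microRNAs that RefSeq lists for them on the minus strand of chromosome 17 of GRCr8 are shown, with the seed (bases 2 to 8) in capitals, because they are the only annotated small RNAs of the stretch on this array.
rno-miR-466d (chr17:72913060-72913081): aUGUGUGUguauguucuuuugu
rno-miR-466c-5p (chr17:72927649-72927669): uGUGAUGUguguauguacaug
rno-miR-466c-3p (chr17:72927610-72927630): uAUACAUGcacacauacacac
The 3 seeds differ. Probes there may also bind precursor or intron RNA, so the values below are not read as levels of mature microRNAs.

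Of 75 features in the stretch 70 had no symbol, and 26 of these shared their values with another, which left 57 distinct rows. Their levels ran from 4.11 to 13.95 with a median of 9.77, and 61 lay above the negative control median. In shock-resistant rats 63 of the 70 were above control, with a median difference of 0.29, and 23 met the nominal criterion, all as higher, where 0.754% of all features did. In shock-sensitive rats 65 were above control, with a median of 0.30, and 24 met it, all as higher, where 0.440% of all features did. Over all features the median differences were 0.02 and 0.01. Counting shared values once, 17 and 19 met the criterion. The 61 features above the negative control median also moved together over the arrays, with a median correlation of 0.52 after removal of group means. The features are therefore not separate observations. The smallest adjusted p in the stretch was 0.159 and 0.367, so no single feature passed. Sfmbt2 itself, at 5.54, differed by -0.09 and -0.01, and Kin by 0.01 and -0.005. The level of Sfmbt2 lay below the negative control median of 6.37, so its differences cannot be told from background. With the mean of the medium spiny neuron markers in the fit 23 and 26 features met the criterion, and with arrays centred on their medians 18 and 21.

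By array, the mean of the 61 features was 9.39 to 9.73 in control, 9.65 to 10.09 in shock-resistant and 9.55 to 10.28 in shock-sensitive rats. The groups overlapped, with the controls low. Shock-sensitive replicate 3 was highest, and without it 12 features met the criterion in shock-sensitive rats in place of 24. In shock-resistant rats the count stayed between 17 and 28 when any 1 array was left out. TC1700002126.rn.1 read 8.86, 9.08 and 9.20 in control, 9.32, 9.73 and 10.42 in shock-resistant and 9.03, 9.61 and 9.98 in shock-sensitive rats. Shock-resistant arrays lay above all controls, by 0.75 (adjusted p = 0.159), and shock-sensitive arrays overlapped them, with a difference of 0.52 (0.511). TC1700002112.rn.1, directly after a Mir466d feature, read 8.95, 9.43 and 9.74 in control, 9.83, 10.05 and 10.40 in shock-resistant and 9.53, 9.91 and 10.35 in shock-sensitive rats. The shock-resistant arrays were again all above the controls. The 3 Mir466d features were higher than control by 0.29 to 0.41 in shock-resistant and 0.26 to 0.40 in shock-sensitive rats, and Mir466c by 0.35 and 0.43.

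**Figure D4:**
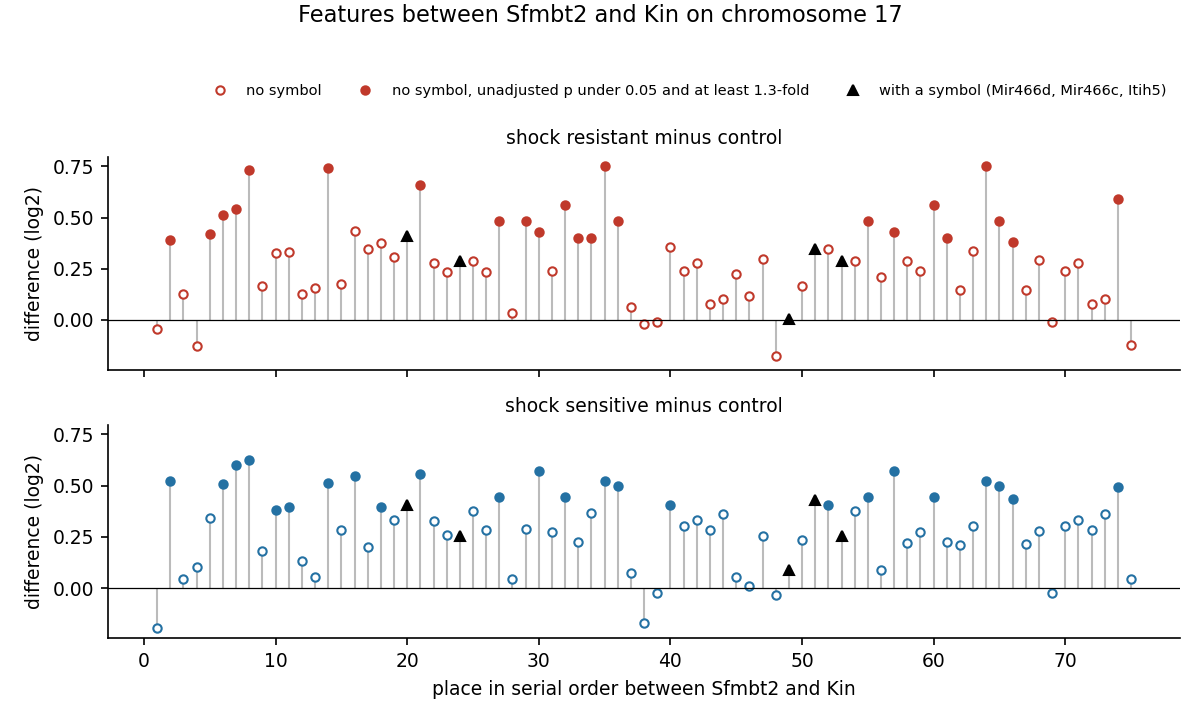
Difference from control (log2) of each of the 75 features between Sfmbt2 and Kin, by place in serial order, in shock-resistant rats (top) and shock-sensitive rats (bottom). Filled points met the nominal criterion (23 and 24 features, all above 0) and triangles are features with a symbol.

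The other windows held lower features in shock-resistant rats. Around Dpp10, between Ddx18 and Actr3 on chromosome 13, 6 of 25 features without a symbol met the nominal criterion as lower against control and none as higher, where 0.507% of all features were lower. None met it in shock-sensitive rats against controls. The mean of the 15 features above the negative control median was 7.62 to 8.51 in control, 7.58 to 8.03 in shock-resistant and 7.92 to 8.31 in shock-sensitive rats, so the groups overlapped. When the medium spiny neuron markers entered the fit 3 met the criterion. Between Neil3 and Tenm3 on chromosome 16 lay 31 features, none with a symbol, of which 6 met it as lower against control and 5 as lower against shock-sensitive rats, where 0.507% and 0.365% of all features did. The mean of 14 of them ran from 6.69 to 7.62 in shock-resistant and 7.42 to 7.75 in shock-sensitive rats. These counts rested on single arrays. Without shock-resistant replicate 1 they were 2 and 2, without shock-resistant replicate 3 they were 11 and 11, and with the markers in the fit 2 and 0. Without control replicate 1 or shock-resistant replicate 4 the first was 3, and without shock-resistant replicate 5 the second was 11. Tenm3, which codes for an adhesion protein of synapse wiring, differed by -0.08 and -0.10.

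Some features without a symbol varied between rats far more than between groups. An SD of 1 or more over the 18 arrays was found in 62 of them (0.138%), against 13 features with 1 symbol (0.055%). The latter include Ttr and Kl of choroid plexus, Oxt of hypothalamic neurons and Slc17a7 of cortical neurons. The widest was TC0600000693.rn.1, which ran from 2.66 in shock-sensitive replicate 2 to 16.56 in control replicate 4, with other controls from 4.32 to 9.25. Its group means were 9.17 ± 4.10 (SD, n = 6) in control, 8.20 ± 2.34 in shock-resistant and 6.86 ± 2.55 in shock-sensitive rats, and no comparison approached the threshold (smallest adjusted p 0.791). TC0200001261.rn.1 ran from 2.54 to 8.41 and followed the vomeronasal receptor gene Vom2r44 directly before it with r = 0.96 (rho = 0.90), or 0.95 without the 2 arrays farthest from its median. The mean of TC0200001261.rn.1, 5.61, lay below the negative control median of 6.37, and that of Vom2r44, 6.65, lay just above it. Of the 62 features, 14 were highest in shock-sensitive replicate 5 and 7 each in shock-resistant replicate 6 and shock-sensitive replicate 2.

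Of these 62, 27 fell into 5 sets that moved together over the arrays. The sets were built from the values themselves, and their agreement within a set is no finding. The largest held 11 features on 10 chromosomes, among them TC0500002540.rn.1, TC1200000272.rn.1 and TC1600001221.rn.1, whose lowest correlation with each other was 0.94. Its mean was 11.69 in shock-sensitive replicate 5, 10.39 in control replicate 3 and 6.53 in shock-sensitive replicate 3. Group means were 8.52 ± 1.35 (SD, n = 6), 7.74 ± 0.96 and 8.34 ± 1.88 in control, shock-resistant and shock-sensitive rats. No feature with 1 symbol reached a correlation of 0.9 with this set. A set of 6 on 5 chromosomes, with TC0100000521.rn.1 and TC1400001613.rn.1, was highest in shock-resistant replicates 6 (10.64) and 3 (9.99). Its nearest feature with a symbol was Rn5s, the 5S ribosomal RNA, at 0.89. A set of 3 on chromosomes 1, 3 and 9 had its nearest in Haus2, a spindle gene, at 0.91. This last set read 5.34 to 5.96 in control, 5.79 to 8.54 in shock-resistant and 5.34 to 8.64 in shock-sensitive rats, so the groups overlapped. Shock-resistant replicates 4 (5.79) and 6 (5.88) and shock-sensitive replicates 3 (5.34), 4 (5.70) and 5 (5.68) lay within the control range. The smallest adjusted p of the set was 0.333.

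**Figure D5:**
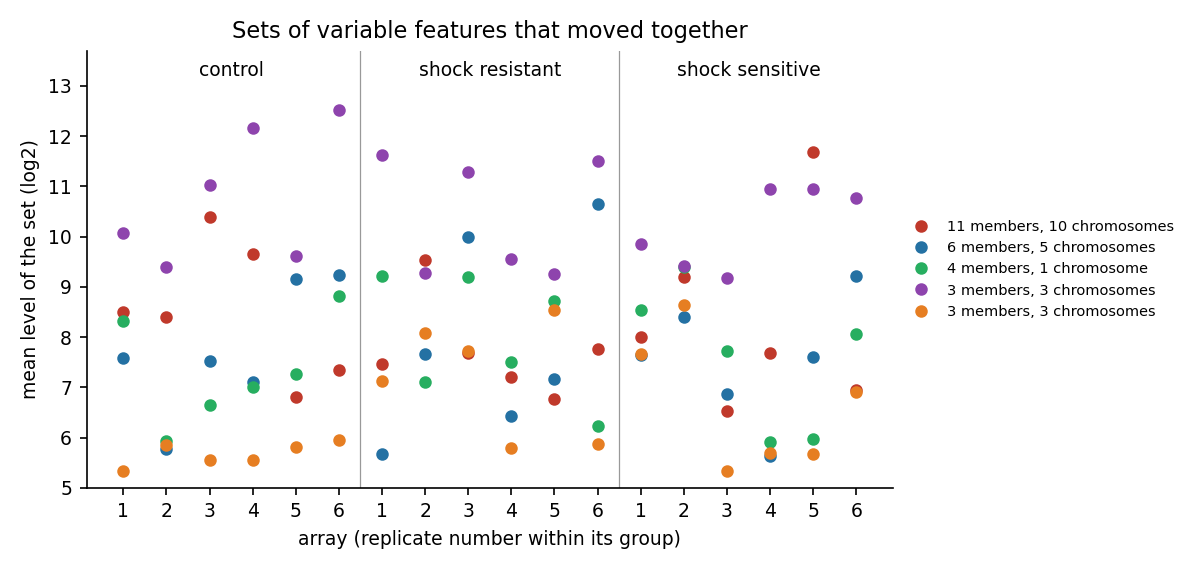
Mean log2 level, on each array, of 5 sets of variable features without a symbol that moved together (11, 6, 4, 3 and 3 features). The set of 11 is highest in shock-sensitive replicate 5 (11.69). The last set lies between 5.34 and 5.96 in control, a range that also holds some arrays of both methamphetamine groups.

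A set of 4 lay wholly on chromosome 7, and with it 3 further variable features, in a stretch of 24 features without a symbol between Mir3561 and Nopchap1. Levels there ran from 4.51 to 9.97, and 7 of the 24 had an SD of 1 or more. In shock-resistant rats 21 of the 24 were above control, with a median difference of 0.48, and in shock-sensitive rats 18, with 0.22. The nominal criterion was met as higher by 2 of them, by 1, and by 1 between shock-resistant and shock-sensitive rats, and by none as lower. Over all features 0.754%, 0.440% and 0.450% met it as higher. With any 1 array left out the counts ran from 0 to 4, 0 to 2 and 0 to 1. TC0700002376.rn.1, named after its values were seen, ran from 6.39 in shock-sensitive replicate 4 to 11.23 in shock-sensitive replicate 2. The mean of the 18 features above the negative control median was 7.20 to 8.74 in control, 7.42 to 9.08 in shock-resistant and 7.13 to 8.77 in shock-sensitive rats, so that the groups overlapped.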

How the data were processed

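The series table holds 1 value per feature and array, 70580 rows by 18 arrays. Per the labels' protocols, 100 ng of total RNA per rat was amplified and biotin-labelled for whole-transcript arrays, and per the submitters' processing notes the Affymetrix Expression Console was used. The deposited values are on a log2 scale, as their range shows. Summarisation, normalization and any filter are not stated in the labels or headers. All 18 columns were used as deposited.

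The 1738 control rows were removed. Groups were compared with limma 3.58.1 (R 4.3.3, lmFit and eBayes) in 1 fit of the 3 groups over 68842 features, with Benjamini-Hochberg adjustment over all. The 1153 negative controls gave the level marks. Named features were, in each comparison, up to 6 higher and 6 lower with the smallest p at 1.3-fold or more and a mean at or above the negative control median, the 8 brightest, the 8 most variable, and their nearest neighbours with a symbol. Any other feature without a symbol was chosen after its values were seen, in the chromosome stretches and variable sets too. The members and lists were chosen with earlier results of these data known. Variable sets were joined by average linkage (distance 0.2). The fit was tested on simulated data. Alternatives covered scaling, filters, fold, array weights, a replicate block, marker genes and single arrays left out. Python 3.11.15, numpy 2.4.6, pandas 2.3.3, scipy 1.17.1 and matplotlib 3.10.9 were used, and gene order and microRNA sequences came from RefSeq (GRCr8).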

Additional observations from a re-analysis of the deposited data

Results flagged for a closer look

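Of 153 groups of 6 arrays tested for 51 named features, 20 had 1 array apart from the other 5, where chance marks about 1 in 20. The tests are not independent, since 16 of the 20 came from the 8 features at the top of the scale (TC0M00000004.rn.1, TC0600000366.rn.1, TC1400000563.rn.1, TC1400000568.rn.1, TC0200001064.rn.1, TC0100007137.rn.1, TC0600000368.rn.1 and TC0600000370.rn.1). In each of these, control replicate 1 was low at 19.55 and shock-sensitive replicate 3 was low at 19.82. In TC1500000397.rn.1 control replicate 2 was low at 7.21, and in TC0700001477.rn.1 shock-resistant replicate 1 was high at 8.99. Shock-resistant replicate 2 was high in TC0500002540.rn.1 (10.1) and TC1200000272.rn.1 (9.92), which belong to the same set of variable features.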

How the results depend on the processing

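No feature without a symbol passed the adjusted threshold under other scaling, filters, a trended or robust prior, the marker genes in the fit, the replicate block or 2 groups alone, nor with equal values counted once or features above 16 left out, both chosen after seeing the data. With array quality weights 8 passed in shock-resistant rats against controls, some of them below the negative control median. With 1 array left out, 0 to 2 passed in shock-resistant and 0 to 2 in shock-sensitive rats against controls, 0 between the methamphetamine groups and 0 to 3 in the F test (3 without shock-sensitive replicate 2). At the nominal criterion, keeping features at or above the negative control median gave 372 and 278 features for the comparisons with control, in place of 682 and 456. A limit of 1.2-fold gave 2215, 1479 and 816 features in the 3 comparisons, and 1.5-fold gave 98, 72 and 67. With the markers in the fit 179 met it between the methamphetamine groups. With 1 array left out the counts ran from 517 to 941, 385 to 747 and 214 to 568. Apart from the fewer features under a filter or a stricter fold, the cause was not tested. Deviations of arrays with the same replicate number correlated at -0.183 to 0.272, with 4 of 18 pairs over 0.1. Pairs of unlike number were not compared. With the replicate block 686, 471 and 293 features met the nominal criterion and none the adjusted one. Features below the negative control median have no level that can be told from background, and those at the ceiling no measurable difference.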
